A study of Mus musculus with 2 samples.

Results

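The 9 genes described here make and use microRNAs in the mouse brain: Drosha, Dgcr8 and Dicer1 cut the precursors, Ago1, Ago3 and Ago4 carry the mature microRNA, and Tnrc6a, Tnrc6b and Tnrc6c link the Argonautes to the machinery that silences the target mRNA. Their m6A sites were taken as every listed position inside the GENCODE M21 interval of each gene, on its strand, in the GRCm38 assembly. The 9 genes held 382 distinct sites of the 219409 in the whole series, 175 of the 79355 listed for the cerebellum and 329 of the 188295 listed for the cerebrum, and 122 sites were in both lists.

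N6-methyladenosine (m6A) is a methyl mark that a nuclear methyltransferase complex places on adenosines of mRNA, mostly in the DRACH motif, in which D is A, G or T, R is A or G and H is A, C or T. In the nucleus the Microprocessor, formed by the RNase Drosha and its double-stranded RNA-binding partner Dgcr8, cuts hairpins out of primary transcripts, and in the cytoplasm Dicer1 trims them to the mature duplex. An Argonaute protein keeps a single strand as a guide, and a Tnrc6 (GW182) protein bound to the Argonaute recruits deadenylases and translational repressors to the target. This machinery acts throughout the differentiation of neurons and glia.

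GLORI converts unmethylated adenosines to inosines with glyoxal and nitrite, so that adenosines still read as A mark m6A at single-base resolution. Poly(A)+ RNA came from the cerebellum and the cerebrum of a single female mouse at P0 (postnatal day 0), of the F1r hybrid, which has a C57BL/6J mother and a PWK/PhJ father. Each tissue is thus represented by 1 library with no replicate, so no test between the tissues was possible, and differences are differences between these libraries. The lists hold positions only, without methylation rates or read counts, so the depth is unknown and an unlisted adenosine may be unmethylated, weakly methylated, unexpressed or thinly covered.

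The labels were compared with the lists as far as positions allow. Over 10 hindbrain genes the cerebellar list had 56 sites and the cerebral list 34, and over 8 forebrain genes 34 and 175. The forebrain transcription factor gene Tbr1 had 0 cerebellar and 25 cerebral sites, and Fezf2 had 0 and 18, whereas the hindbrain genes En1, En2 and Barhl1 had 6, 9 and 12 cerebellar sites and 0, 0 and 1 cerebral ones. The other hindbrain genes did not separate the lists: Zic1 had 19 and 22 sites, Zic2 had 9 and 10, Calb2 had 1 and 1, and Hoxa2, Hoxb2, Atoh1 and Ptf1a had 0 in both. Xist, which is expressed from the inactive X chromosome of females, held 83 and 80 sites, and the Y chromosome held 14 sites in the cerebellum list and 30 in the cerebrum list, a few of them in Kdm5d, with 1 and 3. The origin of the Y-assigned sites was not tested. The cerebrum list was 2.37 times as long as the cerebellum list, and bulk tissue cannot tell fewer cells that express a gene from less of its RNA per cell.

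Every one of the 9 genes had at least 1 site in each library. Over the 20717 coding genes with a complete annotated isoform, 42.9% had a site in the cerebellum and 59.7% in the cerebrum. All 9 genes had more sites in the cerebrum than in the cerebellum, as did 91.0% of the 12622 coding genes with a site in either list, so the direction is that of the background. The ratio of cerebrum to cerebellum sites was 1.88 over the 9 genes and 2.37 over the whole series. It ran from 1.43 for Tnrc6a, 1.65 for Tnrc6b and 1.80 for Tnrc6c to 3 for Dgcr8 and Ago3, and lay at 2.15 to 2.33 for Drosha, Dicer1, Ago1 and Ago4.

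**Figure D1:**
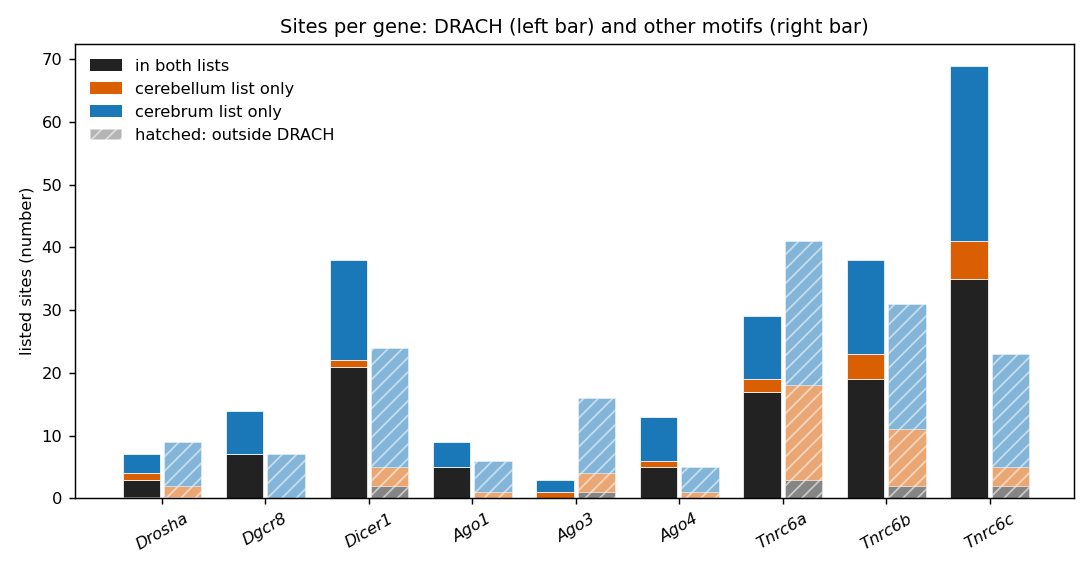
Number of listed sites in each of the 9 genes, with DRACH sites in the left bar and sites in other motifs in the right, hatched bar, stacked by the list that holds them. Tnrc6c had the most DRACH sites (69 over both lists) and Ago3 the fewest (3), and sites outside DRACH were mostly in a single list.

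Sites in the DRACH motif made up 128 of the 175 cerebellum sites (73.1%, 95% Wilson interval 66.1 to 79.2) and 204 of the 329 cerebrum sites (62.0%, 56.7 to 67.1). Over all coding genes the shares were 63.2% and 47.5%. Among sites on the coding transcripts alone they were 79.6% (72.6 to 85.2) and 76.3% (70.7 to 81.1), beside 75.1% and 63.2% over all coding genes. There the cerebellum interval included the background, and the cerebrum interval lay above it. These intervals count each site as 1 independent draw, which neighbouring sites are not, and hold no biological error. Of the 122 sites in both lists, 112 were in DRACH (91.8%, 85.6 to 95.5), against 16 of the 53 listed for the cerebellum alone and 92 of the 207 listed for the cerebrum alone. Over all coding genes 38264 of the 45560 sites in both lists were in DRACH. Of all their sites, 46945 of 74252 were in DRACH in the cerebellum list and 83178 of 175054 in the cerebrum list. Sites in a single list were thus less often in DRACH over all coding genes too. Read the other way, 112 of the 128 cerebellum DRACH sites recurred in the cerebrum list (87.5%, 80.7 to 92.2), against 10 of the 47 cerebellum sites in other motifs (21.3%, 12 to 34.9). The same shares over all coding genes were 81.5% and 26.7%.

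The DRACH sites closest to the stop codon and shared by both lists are printed for the 8 genes that had such a site, because the region around the stop codon is where m6A is best known to gather. Each sequence runs 5′ to 3′ on the strand of the gene over 21 bases of GRCm38, with the motif in capitals and the methylated adenosine in its middle. The positions were chr15:12935160 (+ strand) for Drosha, chr16:18255327 (−) for Dgcr8, chr12:104691583 (−) for Dicer1, chr4:126439329 (−) for Ago1, chr4:126493207 (−) for Ago4, chr7:123192748 (+) for Tnrc6a, chr15:80929477 (+) for Tnrc6b and chr11:117760826 (+) for Tnrc6c.
Drosha: ctttctaaGAACTgtgactgt
Dgcr8: tctcaatgTGACTggatatac
Dicer1: aagcttccGGACTcacaggcg
Ago1: agcaagacAGACTaccagcca
Ago4: ttggaaaaGAACTcaacaaat
Tnrc6a: ctccagccGGACTgatgtcaa
Tnrc6b: ttcaatctGAACTtaaacttt
Tnrc6c: ctgcctggGGACCtgctcagc
In 6 of the 8 genes the site was in the 3′ UTR, at 1 nt after the stop codon in Tnrc6b, 10 nt in Dicer1, 16 nt in Ago4, 38 nt in Drosha, 174 nt in Ago1 and 195 nt in Dgcr8. In Tnrc6c it was in the coding sequence, 26 nt before the end of the stop codon, and in Tnrc6a 204 nt before it. The Tnrc6b adenosine is the first base of the 3′ UTR, and the leading GA of its motif are the last 2 bases of the stop codon TGA. Ago3 had no DRACH site in both lists.

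**Figure D2:**
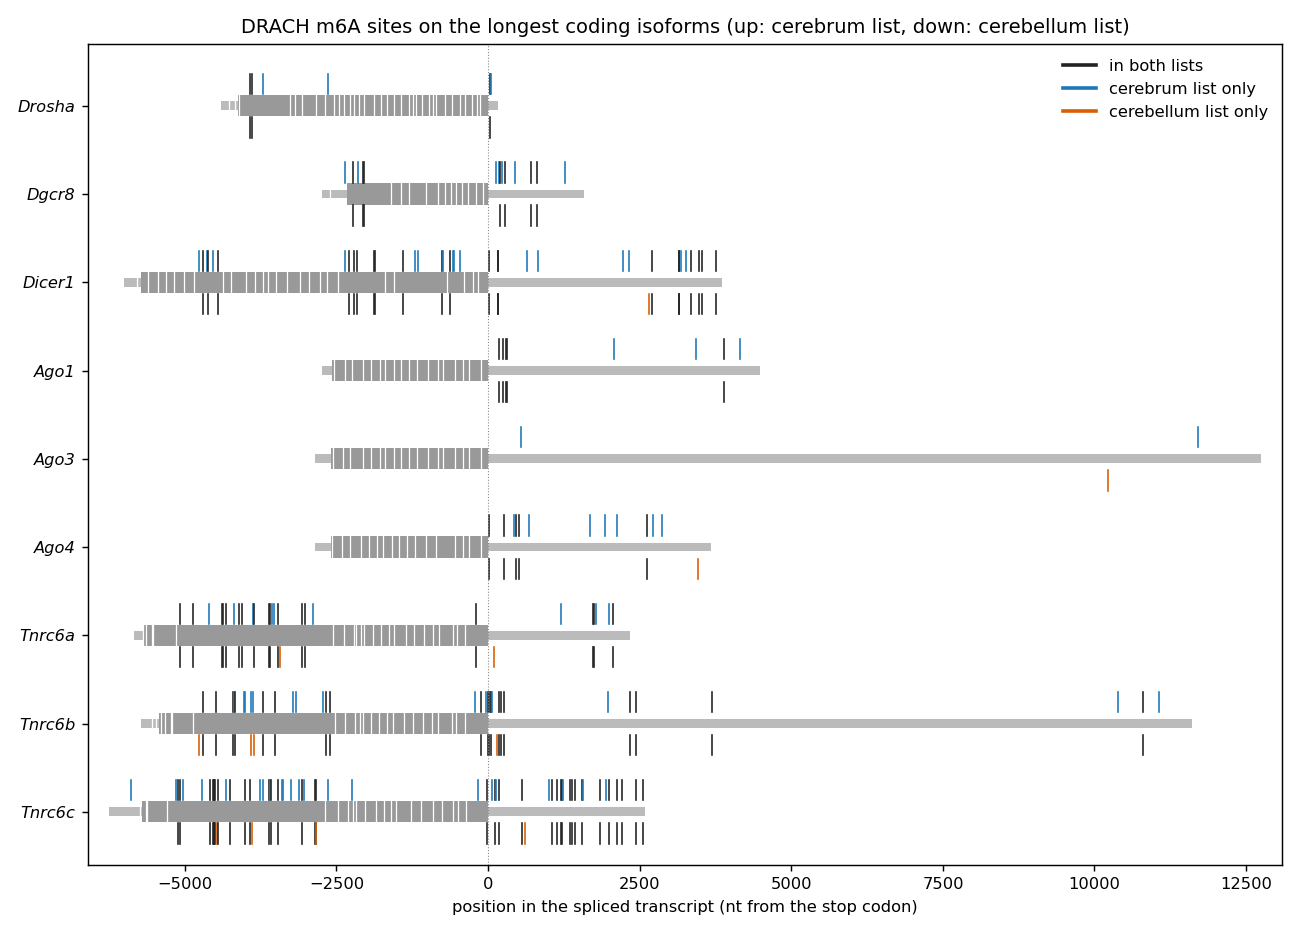
Longest coding isoform of each gene, to scale and aligned at the stop codon (x axis, nt in the spliced transcript), with the coding sequence as the thick bar and exon junctions as white lines. Ticks above are DRACH sites of the cerebrum list and ticks below those of the cerebellum list, with sites in both lists in black; in the coding sequences the ticks stand mostly over a few long exons, and none stands over the coding sequence of Ago1, Ago3 or Ago4.

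To set the genes beside each other regardless of length, the listed sites were counted against all DRACH adenosines of the longest coding isoform. Of the 1769 DRACH adenosines of the 9 transcripts, 125 were listed in the cerebellum (7.07%, 5.96 to 8.36), and 196 were listed in the cerebrum (11.1%, 9.70 to 12.6). Over all coding genes with a site in the library the shares were 5.52% and 7.31%. Without the 3 Tnrc6 genes the shares of the other 6 were 4.33% (3.24 to 5.77) and 7.78% (6.29 to 9.60), and both intervals included the background. Tnrc6c had the highest share, with 39 of 202 (19.3%, 14.5 to 25.3) and 57 of 202 (28.2%, 22.5 to 34.8). Among coding genes with a site and at least 20 DRACH adenosines, 95.5% in the cerebellum and 97.0% in the cerebrum had a lower share than Tnrc6c.

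Dicer1 followed in the cerebrum with 37 of 223 (16.6%, 12.3 to 22.0), then Dgcr8 with 14 of 90 (15.6%, 9.50 to 24.4) and Tnrc6a with 26 of 177 (14.7%, 10.2 to 20.7), and the intervals of these 3 overlapped. Tnrc6b had 34 of 375 (9.07%, 6.56 to 12.4), Ago4 12 of 134 (8.96%, 5.20 to 15), Drosha 6 of 98 (6.12%, 2.84 to 12.7) and Ago1 8 of 139 (5.76%, 2.94 to 10.9), again with overlapping intervals. Ago3 was the lowest with 2 of 331 (0.604%, 0.166 to 2.18), a share above that of 24% of the ranked genes. The order in the cerebellum put Tnrc6a (19 of 177) and Dicer1 (22 of 223) after Tnrc6c, and Ago3 was again lowest with 1 of 331.

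**Figure D3:**
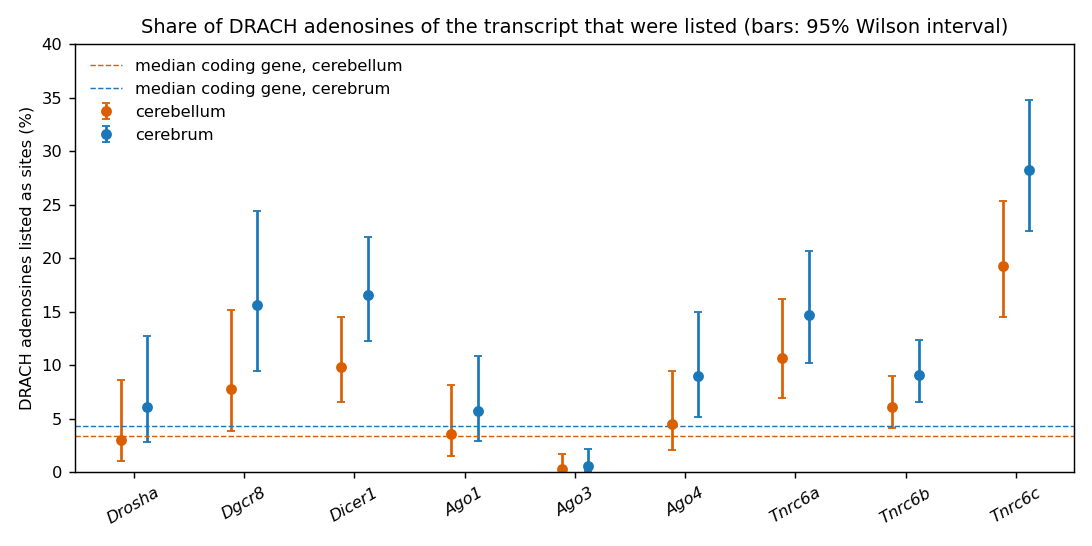
Share of the DRACH adenosines of each transcript that were listed as sites (y axis, %), by library, with 95% Wilson intervals as bars and the median coding gene of each library as a dashed line (3.39% in the cerebellum, 4.35% in the cerebrum). Tnrc6c was highest and Ago3 lowest in both libraries.

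The coding sites lay mostly in long exons. Across the 9 transcripts, 8 internal exons are 400 nt or longer and hold 297 DRACH adenosines, of which 60 were listed in the cerebellum (20.2%, 16.0 to 25.1) and 89 were cerebral (30%, 25.0 to 35.4). The other 177 internal exons hold 547 DRACH adenosines, of which 1 was listed in the cerebellum (0.183%, 0.0323 to 1.03), and 7 were listed in the cerebrum (1.28%, 0.621 to 2.62). The pattern is general to the libraries: over all coding genes with a site, the shares in long internal exons were 14.4% and 19.4%, and in shorter ones 0.556% and 0.970%. Without the 3 Tnrc6 genes the long-exon shares were 19.2% (12 to 29.3) and 32.1% (22.7 to 43). The cerebellum interval then included the background, and the cerebrum interval lay above it. These 8 exons held 48.0% of the cerebellar (39.4 to 56.7) and 45.4% of the cerebral (38.6 to 52.4) DRACH sites of the 9 transcripts, beside 16.8% of their DRACH adenosines. Counting sites in any motif, 41.4% and 40.5% of the sites on the transcripts were in internal exons of this length, against 17.1% and 14.7% over all coding genes.

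Distance to the exon junctions gave a like picture. Within 100 nt of a junction, 5 of 585 DRACH adenosines were listed in the cerebellum (0.855%, 0.366 to 1.99), and 11 of 585 were listed in the cerebrum (1.88%, 1.05 to 3.34), beside 1.05% and 1.63% over all coding genes. Farther away, 120 of 1184 (10.1%, 8.54 to 12) and 185 of 1184 (15.6%, 13.7 to 17.8) were listed, beside 7.93% and 10.5%. The share was highest between 200 and 400 nt from a junction, at 33.3% in the cerebrum (24.7 to 43.2, beside 18.4%). Near junctions the intervals of the 9 genes included the background, and farther away they lay above it. Without the 3 Tnrc6 genes the shares farther away were 6.69% (4.97 to 8.95) and 11.7% (9.43 to 14.5), and these intervals included the background as well.

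**Figure D4:**
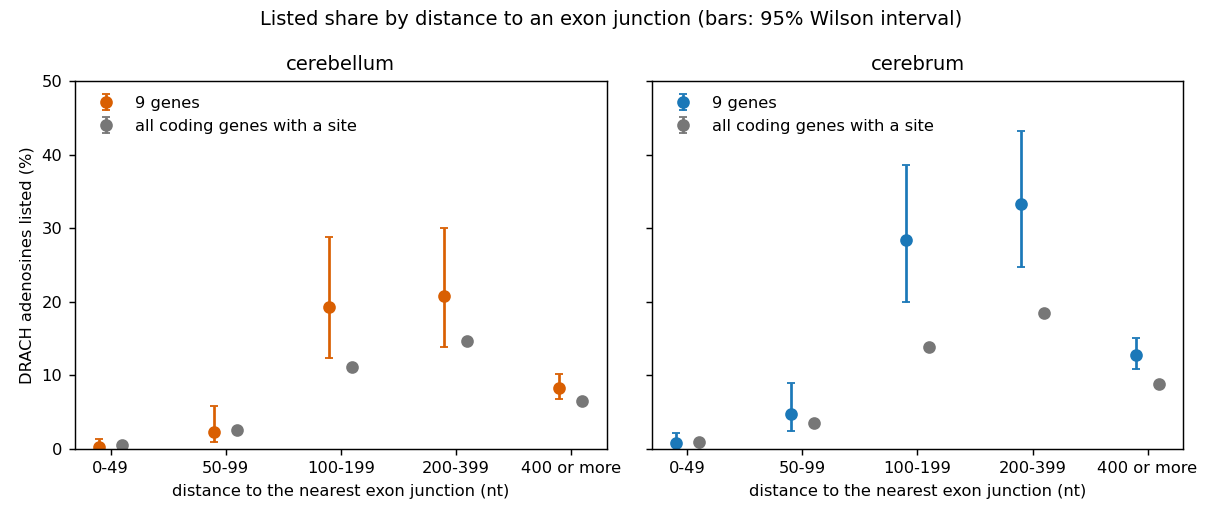
Share of DRACH adenosines listed as sites (y axis, %) by distance to the nearest exon junction (x axis, nt) in the 9 genes and in all coding genes with a site, with 95% Wilson intervals as bars. In both libraries the share was below 5% under 100 nt and reached 20.8% (cerebellum) and 33.3% (cerebrum) at 200 to 400 nt.

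The last exon held 84 of the 157 cerebellum sites on the transcripts (53.5%, 45.7 to 61.1) and 128 of the 257 cerebrum sites (49.8%, 43.7 to 55.9). Over all coding genes the last exon held 72.6% and 69.6%. Of the DRACH adenosines of the 9 transcripts, 51.2% were in the last exon. Their listed DRACH sites had nearly the same last exon share, 51.2% (cerebellum, 42.5 to 59.8) and 50.5% (cerebrum, 43.6 to 57.4). The 3′ UTR held 51.6% (43.8 to 59.3) and 46.7% (40.7 to 52.8), beside 56.5% and 54.0% over all coding genes and 49.3% of the DRACH adenosines of the 9 transcripts. Within 200 nt of the stop codon lay 12.7% (8.4 to 18.9) and 10.9% (7.65 to 15.3) of the sites, beside 20.4% and 19.0% over all coding genes. Of the DRACH adenosines in that window, 17 of 81 were listed in the cerebellum (21%, 13.5 to 31.1), and 24 of 81 were listed in the cerebrum (29.6%, 20.8 to 40.3), beside 12.2% and 15.2%. Without the 3 Tnrc6 genes 7 of 53 (13.2%, 6.55 to 24.8) and 10 of 53 (18.9%, 10.6 to 31.4) were listed, and the intervals included the background.

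Over the 3′ UTRs together, the listed share was lower far from the stop codon. In the 400 nt after it, 22 of 74 DRACH adenosines were listed in the cerebellum (29.7%, 20.5 to 40.9), and 28 of 74 were listed in the cerebrum (37.8%, 27.6 to 49.2), where the background was 15.3% and 18.5%. Beyond 400 nt, 39 of 799 (4.88%, 3.59 to 6.60) and 65 of 799 (8.14%, 6.43 to 10.2) were listed, where the background was 4.57% and 6.19%. The genes were not alike. Tnrc6c had 2 of 7 and 4 of 7 listed in the first 400 nt, and beyond it 16 of 46 (34.8%, 22.7 to 49.2) and 19 of 46 (41.3%, 28.3 to 55.7). Dicer1 had 3 of 18 in each library in the first 400 nt, and 8 of 60 and 13 of 60 beyond it. Tnrc6a had 1 of 6 and 0 of 6, and then 3 of 44 and 6 of 44. Tnrc6b, with a 3′ UTR of 11609 nt, had 7 of 14 and 8 of 14 in the first 400 nt but 4 of 215 and 7 of 215 beyond it, and Ago3, with 12742 nt, had 1 of 263 and 2 of 263 beyond it. Beyond 400 nt the interval of the 9 genes included the background in the cerebellum and lay above it in the cerebrum. Without the 3 Tnrc6 genes the shares there were 3.24% (2 to 5.20) and 6.68% (4.8 to 9.23), and both intervals included the background. In the first 400 nt they were then 25.5% (15.3 to 39.5) and 34% (22.2 to 48.3). The cerebellum interval reached down to the background, and the cerebrum interval lay above it.

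Of the Microprocessor genes, Dgcr8 had the higher listed share in both libraries, with intervals that overlapped those of Drosha. Drosha (ENSMUSG00000022191, chr15:12824815-12935291, + strand) has 35 exons over 4570 nt, and only exon 4, of 834 nt, is long. It had 6 cerebellar and 13 cerebral sites, 3 of them in both lists and all 3 in DRACH. The shared sites in exon 4 spanned 37 nt (chr15:12834002, GAACT, and chr15:12834038, AGACT), and the other was 38 nt after the stop codon, in a 3′ UTR of 168 nt. The cerebrum list added DRACH sites in exon 4 (GGACA), in exon 9 (GGACT) and 44 nt after the stop codon (TGACT). The remaining 10 of the 16 sites over both lists were in introns or outside DRACH, and each was in a single list.

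Dgcr8 (ENSMUSG00000022718, chr16:18253948-18289246, −) had 7 sites in the cerebellum, all in DRACH and all also in the cerebrum list, which had 21 sites. Exon 2, of 1000 nt, holds the end of the 5′ UTR and the start codon and had 3 cerebellar and 6 cerebral sites. The last exon had 4 and 12. The other 12 exons had 0 cerebellar and 2 cerebral sites, both outside DRACH, in exons 10 and 11.

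Exon 2 of Dgcr8 also carries a microRNA hairpin, Mir1306, and the Microprocessor is known to cut hairpins in the Dgcr8 mRNA, which lowers its level. Sites at this hairpin are printed with the mature microRNAs from RefSeq (GRCm38.p6), whose seed, bases 2 to 8, is in capitals.
chr16:18284318, GAACA: tgccccatGAACAgtctccac
chr16:18284268, GGACG: gaggtaatGGACGttggctct
chr16:18284246, GGACA: gtggtgatGGACAgtccgaac
mmu-miR-1306-5p: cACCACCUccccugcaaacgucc
mmu-miR-1306-3p: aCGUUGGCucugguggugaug
The hairpin spans chr16:18284239-18284317 on the − strand, 79 nt in length. The site at 18284318, in both lists, was the base directly 5′ of the hairpin. The site at 18284268, listed for the cerebrum alone and outside DRACH because of its G after the C, was base 50 of the hairpin and base 1 of miR-1306-3p. The site at 18284246, also of the cerebrum alone, was base 72 of the hairpin, 2 nt past the 3′ end of miR-1306-3p. A second hairpin in exon 2, annotated as Gm24572 and giving miR-3618, lies in the 5′ UTR at chr16:18284550-18284637, and its closest site was 97 nt downstream at chr16:18284453 (AAACT, cerebrum alone). Tnrc6b also carries an annotated hairpin, Mir5113, in its 3′ UTR at chr15:80940039-80940120. The closest site to Mir5113 was 90 nt downstream at chr15:80940210 (ACAAA, cerebrum alone).

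Dicer1 (ENSMUSG00000041415, chr12:104687742-104751952, −), the cytoplasmic RNase, had 27 cerebellar and 58 cerebral sites, with 23 in both lists, 21 of which were in DRACH. Of 27 exons, 3 internal exons exceed 400 nt. Exon 8 (473 nt) had 3 of its 11 DRACH adenosines listed in the cerebellum and 6 in the cerebrum, exon 21 (781 nt) had 5 and 6 of 19, and exon 23 (871 nt) had 2 and 5 of 18. Exon 24, of 269 nt, had 1 and 4 of 9, and was the shorter internal exon with the most listed DRACH adenosines among the 9 genes. All 11 coding DRACH sites of the cerebellar list recurred in the cerebral list.

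The Dicer1 3′ UTR had 11 of 78 DRACH adenosines listed in the cerebellum (14.1%, 8.06 to 23.5), and 16 of 78 were listed in the cerebrum (20.5%, 13 to 30.8). Its shared sites stood in 2 groups, at 10 to 167 nt and at 2700 to 3766 nt after the stop codon. Exon 23 also held 4 sites in 37 nt, the tightest of the groups of 4 in the 9 genes, at chr12:104696762-104696798, printed from 5′ to 3′ to show that its members mix motifs.
chr12:104696798: gaagaggaTGACTttgtggta
chr12:104696778: aggtttctGGAATccatcaga
chr12:104696765: ccatcagaAGAGAactgtggc
chr12:104696762: tcagaagaGAACTgtggcgtc
The outer sites were in DRACH and the inner ones were not, and all 4 were in the cerebrum list and none in the cerebellum list.

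Ago1, Ago3 and Ago4, the Argonaute genes of this set, had no DRACH site in their coding sequences. Ago2 is not in the set and was not counted. Ago1 (ENSMUSG00000041530), Ago3 (ENSMUSG00000028842) and Ago4 (ENSMUSG00000042500) lie on the − strand of chromosome 4 between 126331704 and 126533472 and encode proteins that were 82.7% to 86.0% identical in pairs. Their coding sequences hold 51, 63 and 57 DRACH adenosines, 171 in all, and 0 were listed in either library. Of these, 168 are within 100 nt of an exon junction, and the longest internal exons of the 3 genes have 200, 209 and 316 nt, none as long as 400 nt. The background within 100 nt of a junction, 1.05% and 1.63%, is low as well. Only 5 sites in other motifs fell in these coding sequences, each in a single list.

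Their 3′ UTRs differed. Ago1 had 5 DRACH sites in the cerebellum, each also in the cerebrum, at 174, 253, 303, 319 and 3889 nt after the stop codon, and the cerebrum list added 3 at 2074, 3422 and 4151 nt. The first 400 nt of this 3′ UTR hold 6 DRACH adenosines, and the same 4 were listed in both libraries. Ago4 had 6 cerebellar and 12 cerebral DRACH sites, with 5 in both lists at 16, 270, 462, 516 and 2619 nt. Ago3 had 1 DRACH site in the cerebellum, at 10225 nt, and 2 in the cerebrum, at 540 and 11708 nt, none of them shared.

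Ago3 was also the gene with the lowest share of DRACH sites, 1 of 5 in the cerebellum and 2 of 15 in the cerebrum. Its only site in both lists was at chr4:126345361, 113 nt after the stop codon, in the motif GTACT, which has T in place of the purine of DRACH. The same motif held a cerebrum site 11 nt before the end of the stop codon. An intronic Ago3 site of the cerebrum list, at chr4:126370579 on the − strand, has no A in the GRCm38 reference at its position, and it was the only such site among the 382. Its 5 central bases are in capitals.
Ago3, chr4 126370579: gtttctttCCGTCtttatcct

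The Tnrc6 genes held 231 of the 382 sites. Tnrc6a (ENSMUSG00000052707, chr7:123123885-123195296, +) had 37 cerebellar and 53 cerebral sites, with 20 in both lists. Tnrc6b (ENSMUSG00000047888, chr15:80711313-80941085, +) had 34 and 56, with 21 in both. Tnrc6c (ENSMUSG00000025571, chr11:117654289-117763439, +) had 46 and 83, with 37 in both, the most of any of the 9 genes.

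In each of the 3 genes most coding DRACH sites stood in a single long exon. Exon 6 of Tnrc6a has 2583 nt, and 14 of its 66 DRACH adenosines were listed in the cerebellum (21.2%, 13.1 to 32.5), and 19 were listed in the cerebrum (28.8%, 19.3 to 40.6). Exon 8 of Tnrc6b has 2340 nt, with 11 of 76 (14.5%, 8.28 to 24.1) and 16 of 76 (21.1%, 13.4 to 31.5). Exon 5 of Tnrc6c has 2601 nt, with 20 of 77 (26%, 17.5 to 36.7) and 29 of 77 (37.7%, 27.7 to 48.8). The intervals of the 3 exons overlapped within each library. Of the coding DRACH sites in the cerebral list, these exons held 19 of 20, 16 of 19 and 29 of 33. The 62 shorter internal exons of the 3 genes had 175 DRACH adenosines, of which 0 were listed in the cerebellum and 2 in the cerebrum, both in Tnrc6c.

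The last exon of Tnrc6c stood apart from those of Tnrc6a and Tnrc6b. Tnrc6c had 19 of 58 DRACH adenosines of its last exon listed in the cerebellum (32.8%, 22.1 to 45.6), and 25 were listed in the cerebrum. Tnrc6a had 5 and 7 of 57 (8.77%, 3.81 to 18.9, in the cerebellum) and Tnrc6b 12 and 18 of 237 (5.06%, 2.92 to 8.64), and the intervals of these 2 overlapped in both libraries. Over all coding genes with a site the last exon shares were 7.32% and 9.72%. Among the other genes Dgcr8 had 4 and 9 of 32, with intervals that overlapped those of Tnrc6c in both libraries. In the 3′ UTR the cerebrum shares were 43.4% for Tnrc6c (31.0 to 56.7), 12% for Tnrc6a (5.62 to 23.8) and 6.55% for Tnrc6b (4.01 to 10.5), and the interval of Tnrc6c did not overlap those of the other two. The background was 8.67%, and Dgcr8 had 9 of 30 (30%, 16.7 to 47.9), an interval that overlapped that of Tnrc6c. Within 200 nt of the stop codon, Tnrc6b had 6 of 12 DRACH adenosines listed in the cerebellum and 8 in the cerebrum, Tnrc6c had 3 of 8 and 6 of 8, and Tnrc6a had 1 of 8 and 0 of 8.

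The long exons of the 3 Tnrc6 genes align with each other, which allowed the sites to be compared codon by codon. The proteins were 43.8% to 48.8% identical over aligned positions. With all coding DRACH sites of either list, 21 in Tnrc6a, 22 in Tnrc6b and 36 in Tnrc6c, 8 aligned positions carried a site in at least 2 of the genes, at the same base of the codon, and 1 carried a site in all 3. Each is printed by gene and codon number, with the motif in capitals, to show how far the sequence around the adenosine is shared (GRCm38, + strand).
Tnrc6a codon 437, chr7:123170299: aaacgactGGACCaaataaca
Tnrc6b codon 409, chr15:80879525: acactgatGGACCaaaaaatg
Tnrc6c codon 393, chr11:117721716: acactgatGGACCaaataaca
Tnrc6a codon 443, chr7:123170316: aacactacTAACTttatgacc
Tnrc6b codon 416, chr15:80879545: ggaaacacTAACTccttgaac
Tnrc6b codon 419, chr15:80879554: aactccttGAACTtaagttca
Tnrc6c codon 401, chr11:117721739: aaccccatGAACTcttcacca
Tnrc6a codon 459, chr7:123170365: aaaataatGAACTgcctacta
Tnrc6c codon 414, chr11:117721779: agacaaacGGACTgccaaact
Tnrc6a codon 697, chr7:123171078: aacagaacTGACTtagatcca
Tnrc6c codon 648, chr11:117722480: ccaaggaaTGACCttgaccca
Tnrc6a codon 711, chr7:123171119: gtggggacAGACTcctattaa
Tnrc6c codon 662, chr11:117722521: ttggggacAGACTcccgtaaa
Tnrc6b codon 737, chr15:80880508: ggctggaaTGACTataagaac
Tnrc6c codon 749, chr11:117722783: gtttggggGGACTcaataagc
Tnrc6b codon 1801, chr15:80929445: ctacctggTGACCttctggga
Tnrc6c codon 1893, chr11:117760826: ctgcctggGGACCtgctcagc
The GGACC site present in all 3 genes (chr7:123170299, chr15:80879525 and chr11:117721716) was in both lists in each gene. The next 3 shared positions, up to codon 459 of Tnrc6a and codon 414 of Tnrc6c, followed it closely. In Tnrc6c it belonged to a group of 4 DRACH sites within 40 nt (chr11:117721700-117721739), all of them in both lists. The last pair was outside the long exon, 32 nt before the end of the stop codon in Tnrc6b and 26 nt before it in Tnrc6c.

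Shared sites were a minority where the motif was kept. Tnrc6a and Tnrc6c have a DRACH adenosine at 31 aligned coding positions, of which in the cerebrum 4 were listed in both genes, 2 in Tnrc6a alone, 3 in Tnrc6c alone and 22 in neither. For Tnrc6b and Tnrc6c the numbers were 4, 3, 4 and 24 of 35, and for Tnrc6a and Tnrc6b 2, 5, 3 and 21 of 31. In the cerebellum 2, 2 and 1 positions were listed in both genes of these pairs. The pairs among Ago1, Ago3 and Ago4 keep DRACH adenosines at 24 to 28 aligned coding positions, and none was listed in any of them.

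**Figure D5:**
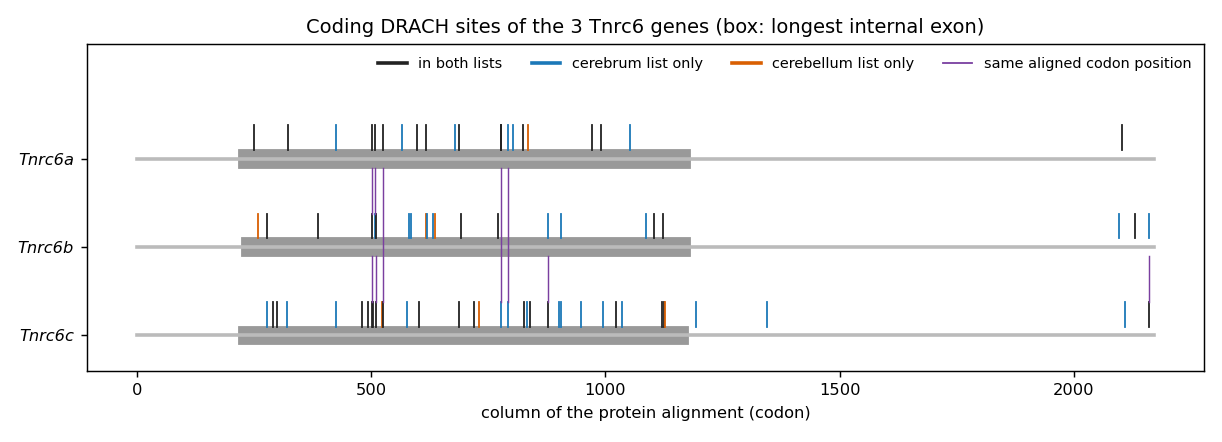
Coding DRACH sites of Tnrc6a, Tnrc6b and Tnrc6c along the aligned proteins (x axis, alignment column in codons), with the longest internal exon as a box and sites coloured by list. Purple lines join sites at the same aligned codon position; 7 of the 8 joined positions lie within the long exon.

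Among the DRACH adenosines of the 9 transcripts, GAACT was listed most often in the cerebellum, at 22 of 91 (24.2%, 16.5 to 33.9, beside 13% over all coding genes), followed by GGACT at 19 of 87 (21.8%, 14.5 to 31.6, beside 13.9%). AGACT (12.1%, beside 12%), TGACT (11.9%, beside 9.35%) and AAACT (10.2%, beside 7.67%) came next. TGACC was listed at 0 of 96 (beside 0.988%) and AAACA at 1 of 165 (0.606%, beside 1.67%). For GAACT and GGACT the intervals lay above the background, and for these other motifs they included it. In the cerebrum GGACT, at 29 of 87 (33.3%, 24.3 to 43.8, beside 19%), and GAACT, at 30 of 91 (33%, 24.2 to 43.1, beside 16.3%), were again the highest.

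Sites off the coding transcripts were mostly outside DRACH. They numbered 89 over both lists, 67 in introns and 22 in exons of other isoforms, and 26 were in Tnrc6a and 24 in Tnrc6c. Of the 89, 11 were in DRACH and 8 of these in Tnrc6c. By list, 3 of 18 were in DRACH in the cerebellum (16.7%, 5.84 to 39.2) and 8 of 72 in the cerebrum (11.1%, 5.74 to 20.4). Over all coding genes these shares were 21.8% and 15.9%, which the intervals included. A single one of the 89, in an intron of Tnrc6c, was in both lists. The share of such sites in both lists was not computed over all coding genes. Of the sites in the 9 genes, 9.71% were intronic in the cerebellar list (6.15 to 15) and 15.5% in the cerebral list (12 to 19.8), beside 18.7% and 27.0% over all coding genes. None of the 89 was in an exon of another gene annotated on the same strand.

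A list of 26 further genes of the pathway was counted by the same rule. Of 12 genes for the processing, export, tailing and decay of precursors, 7 had a site in the cerebellum and 10 in the cerebrum, where the background over coding genes was 42.9% and 59.7%. Ddx17, a helicase of the Microprocessor, had 27 and 33 sites, and the terminal uridylyltransferases Tut4 and Tut7 had 21 and 44, and 5 and 27. Lin28a, which blocks let-7 maturation, and Trim71, an RNA-binding ubiquitin ligase of early development, had 0 in both. Of 14 genes acting downstream of Tnrc6, in deadenylation, decapping and decay, 12 had a site in the cerebellum and 14 in the cerebrum, led by the deadenylase subunit Pan3 with 25 and 63, the helicase Ddx6 with 34 and 47 and the deadenylase Cnot6l with 13 and 43.

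With the 25 of these genes that had a complete isoform, 105 of 2516 DRACH adenosines were listed in the cerebellum (4.17%, 3.46 to 5.03), and 176 were listed in the cerebrum (7%, 6.06 to 8.06). Counting, as in the background, only genes with a site in the library, the list had 105 of 1955 listed in the cerebellum (5.37%, 4.46 to 6.46), and 176 of 2295 were listed in the cerebrum (7.67%, 6.65 to 8.83). The 9 genes, at 7.07% and 11.1%, had intervals that overlapped that of the list in the cerebellum and lay above it in the cerebrum, and without the 3 Tnrc6 genes the intervals overlapped in both. Ddx6, at 20.1% in the cerebellum and 22.4% in the cerebrum, was the only gene of the list with a share as high as that of Tnrc6c in the cerebellum, and none of the list reached that of Tnrc6c in the cerebrum. Across the list 21 of 26 genes had more sites in the cerebrum (beside 91.0% of coding genes with a site), 1 had more in the cerebellum (Lin28b, with 10 and 8) and the others had equal numbers, 2 of them at 0.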

How the data were processed

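GLORI libraries of poly(A)+ RNA from the cerebellum and the cerebrum of a single mouse were read as lists of genomic positions. The authors aligned reads to mm10 and to a PWK version of it with GLORI-tools and deposited the coordinates, with no score, of adenosines that passed a minimum rate of 0.1 and a minimum of 8 reads, both to be exceeded. The deposited lists carry no rates, counts or depth. The tissue of each list is the one recorded for its sample, although the cerebrum list is named with the cerebellum abbreviation. Gene models were those of GENCODE M21 (GRCm38), another release than the one named in the methods, and each gene was represented by its longest complete coding isoform. Positions were assigned to region, exon and 5-base motif with Python 3.11.15 and pysam 0.24.0, and proteins were aligned with mafft 7.526. The assignment of region and motif was tested on random positions of annotated transcripts. The counts, shares and protein alignment were not part of that test. Shares carry 95% Wilson intervals. With 1 library per tissue no test between tissues was run.

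The 9 genes, the 26 pathway genes and the marker lists were chosen with earlier results of these data known. Sequences were printed for the DRACH site nearest the stop codon in both lists, sites at a hairpin, the tightest group and sites at homologous codons. Named pathway genes were the 3 with most sites among processing and among silencing genes and those with none.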

Additional observations from a re-analysis of the deposited data

How the results depend on the processing

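Both libraries came from a single mouse, and with 1 library per tissue no paired analysis was possible. Values are for the cerebellum and then the cerebrum. The share of sites in the motif was 60% and 48.6% with a purine required at the first base, 91.8% in both for sites found in both libraries, and 70.9% in the cerebrum for exonic sites. Without Ago3 (an alternative chosen after seeing the data) the listed share of DRACH adenosines was 8.62% and 13.5%. Without the 3 Tnrc6 genes, also chosen after seeing the data, it was 4.33% and 7.78%, while in the cerebrum the 3′ UTR share was 56.1% and the last exon share 57%. Counting only sites in both libraries gave 6.33% for the cerebrum. Beyond 100 nt of a junction, leaving out the Tnrc6 genes gave 6.69% and 11.7%. A 200 nt limit around junctions gave 3.27% and 5.35%, and a 400 nt window around the stop codon 22.3% and 16.7%. Within 5 codons, 9 and 17 positions were shared by Tnrc6 genes. Of DRACH sites, 87.5% and 54.9% were also in the other library, and of exonic sites 76.6% and 43.5%. With DRACH sites alone the cerebrum had 204 sites in the 9 genes. Precision is limited by the single libraries and the unknown depth.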
